A study of Rattus norvegicus with 9 samples.

Results

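The mitochondrial genome of the rat encodes core subunits of the respiratory chain, and 10 of these genes were followed by their Ensembl identifiers through 9 RNA-seq libraries of HBZY-1. This established cell line derives from rat mesangium, the tissue of contractile cells that holds the capillary loops of the glomerulus together. The genes were Mt-nd1 (ENSRNOG00000030644), Mt-nd2 (ENSRNOG00000031033), Mt-nd3 (ENSRNOG00000033615), Mt-nd4 (ENSRNOG00000029707), Mt-nd5 (ENSRNOG00000029971), Mt-cyb (ENSRNOG00000031766), Mt-co1 (ENSRNOG00000034234), Mt-co2 (ENSRNOG00000030371), Mt-co3 (ENSRNOG00000030700) and Mt-atp6 (ENSRNOG00000031979). The files give identifiers only, and the gene names are those supplied with the rule that chose the 10 genes. All 10 identifiers were in the table of 30560 genes, and all 10 passed the filter that left 12192 genes for testing (average TPM across libraries of 1 or more). TPM is the share of a gene's transcripts in a library corrected for transcript length and scaled to a total of 1000000. Each group had 3 libraries. The extract group was given the high dose of an aqueous preparation of lyophilized powder of the leech Poecilobdella manillensis, the LPS group is the model induced with lipopolysaccharide, a bacterial membrane component that provokes inflammation, and the control group is labelled only as control. Whether LPS was also given to the extract group is not stated in the labels, nor are doses and exposure times. All libraries come from 1 cell line, and the replicates are described as biological without a statement of separate cultures. The p-values therefore set group differences against the spread between these libraries. Whether that spread is that of independent cultures is unknown.

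Oxidative phosphorylation passes electrons from NADH and succinate along membrane complexes to oxygen and uses the resulting proton gradient to make ATP. Most subunits are encoded in the nucleus, while a small set is transcribed inside the mitochondrion from its own circular genome by a dedicated RNA polymerase. The 10 genes described here lie on the same strand and are cut out of a long shared precursor RNA at the tRNAs that separate most of them. Their levels therefore share a source, and 10 genes moving together are not 10 independent observations. Mt-nd1 to Mt-nd5 encode membrane subunits of complex I (NADH dehydrogenase), Mt-cyb encodes cytochrome b of complex III, Mt-co1 to Mt-co3 encode the catalytic core of complex IV (cytochrome c oxidase), and Mt-atp6 encodes the proton-channel subunit a of complex V (ATP synthase). Mt-atp6 overlaps the reading frame of Mt-atp8, and Mt-nd4 that of Mt-nd4l, so the division of reads between these neighbours is uncertain.

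The 10 genes together made up 7.22%, 7.29% and 7.21% of the TPM in extract libraries, 6.42%, 6.09% and 6.46% in LPS libraries and 5.92%, 5.96% and 5.85% in control libraries. The 3 groups did not overlap. The mean share was 7.24% ± 0.042 in extract, 6.32% ± 0.205 in LPS and 5.91% ± 0.056 in control cells (SD, n = 3 each). The summed share was thus 1.225 times as high in extract as in control cells, 1.145 times as high in extract as in LPS cells and 1.07 times as high in LPS as in control cells. No test was made of this sum, because the genes were chosen with results of these data known. The libraries are bulk RNA, in which fewer cells of a type and less RNA per cell cannot be told apart. Read depth cannot be recovered from TPM, and the number of reads behind each value is unknown.

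**Figure D1:**
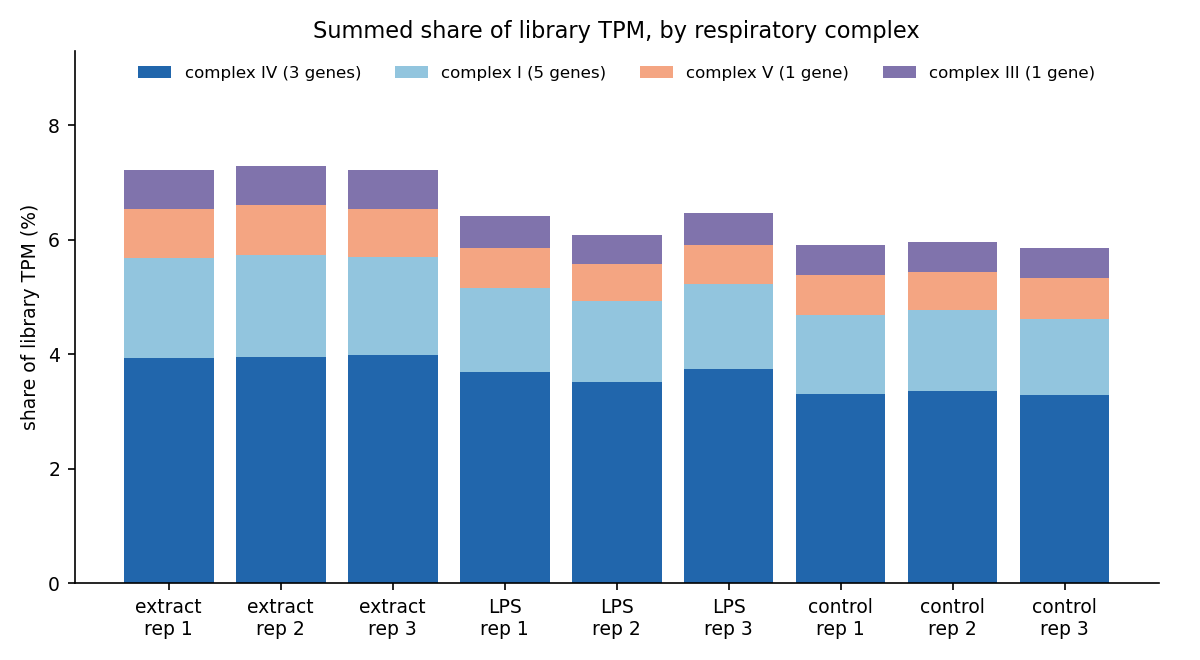
Stacked bars give the share of each library's TPM (percent, vertical axis from 0) taken by the 10 genes, divided by respiratory complex, for the 3 extract, 3 LPS and 3 control libraries. The extract bars reach 7.21% to 7.29%, the LPS bars 6.09% to 6.46% and the control bars 5.85% to 5.96%, and complex IV is the tallest segment in every bar.

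TPM is corrected for length, so levels were set side by side between genes. Those of Mt-atp6 and Mt-nd4 carry the uncertain division of reads with their neighbours. The order of mean TPM was the same in all 3 groups: Mt-co1, Mt-co2, Mt-co3, Mt-atp6, Mt-cyb, Mt-nd3, Mt-nd1, Mt-nd2, Mt-nd4 and Mt-nd5. Neighbours in this order did not overlap within any group, with the exception of Mt-nd3 and Mt-nd1 in control cells, where Mt-nd3 was the higher in 2 of 3 libraries. The 3 cytochrome c oxidase genes held ranks 4, 5 and 6 among all 30560 genes by mean TPM over the 9 libraries, and Mt-nd5 ranked 123. Mt-co1 averaged 10.2 times the TPM of Mt-nd5 in extract cells, 11.6 times in LPS cells and 11.2 times in control cells.

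Extract versus control cells addressed how far cells given the extract stood from the baseline. With TPM as deposited all 10 genes were higher in extract than in control cells past the threshold, a direction that turned for Mt-co1, Mt-co2 and Mt-co3 under quantile normalization. The calls (limma moderated test on log2(TPM + 1), adjusted p below 0.05, adjusted over all 12192 genes) stand against 22.3% of all genes tested that were called higher. The log2 fold changes lay between 0.22 for Mt-co1 and 0.37 for Mt-nd1, with a median of 0.34 over the 10 genes and of -0.04 over all genes tested. The TPM of the 3 extract and 3 control libraries did not overlap for any of the 10, whereas 26.2% of all genes tested were separated in that direction. Because TPM has a fixed total, the larger share of the 10 genes goes with a smaller sum of all other genes, a log2 shift of -0.0205. This arithmetic effect was small beside the median of 0.34 over the 10 genes, though not beside that of -0.04 over all genes tested. Under quantile normalization 6 of the 10 genes were called higher, against 25.7% of all genes, and 1, Mt-co2, was called lower, against 25.8%. Mt-cyb was not called there. No gene of the 10 was called lower with TPM as deposited, against 29.4% of all genes tested. Quantile normalization replaces each value by the average value at its rank, which is coarse among the few most abundant genes. Without a filter on low values 9 of the 10 were called, all but Mt-co1, against 14% of all genes called higher.

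Among the complex I genes, Mt-nd1 stood at 4598, 4581 and 4488 TPM in extract libraries, 3703, 3539.7 and 3759 TPM in LPS libraries and 3588, 3543 and 3479.9 TPM in control libraries. The extract libraries lay above all others, and the LPS and control libraries overlapped. Mt-nd1 showed the largest log2 fold change of the 10 against control cells, 0.37 ± 0.029 (SE; limma adjusted p = 7.6e-06). Against LPS cells the difference was 0.31 ± 0.029 (limma adjusted p = 1.33e-05), and between LPS and control cells it was 0.05 ± 0.029 (limma adjusted p = 0.19).

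Mt-nd2 followed Mt-nd1 closely, with 4167 to 4397 TPM in extract, 3270.4 to 3486 TPM in LPS and 3306 to 3326 TPM in control libraries. Mt-nd4 stood at 2447 to 2669 TPM in extract, 2053 to 2297 TPM in LPS and 2011 to 2081 TPM in control libraries. Mt-nd5 stood at 1391 to 1481 TPM in extract, 1115 to 1264 TPM in LPS and 1105 to 1148 TPM in control libraries. In all 3 genes the extract libraries were above every other library, and the LPS range of Mt-nd2 reached both below and above its control range. Their log2 fold changes in extract versus control lay between 0.34 and 0.36, with adjusted p of at most 0.000231 (limma).

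Mt-nd3, the complex I gene with the widest spread in control cells, stood at 4633, 4629.7 and 4751 TPM in extract libraries, 3989, 4104 and 4057 TPM in LPS libraries and 3652, 4082 and 3347 TPM in control libraries. Control replicate 2 lay within the LPS range and the other 2 control libraries lay below it. The coefficient of variation of Mt-nd3 was 10% in control cells, against 0.302% to 3.43% for the other 9 genes there and a median of 5.17% over all genes tested. It was 1.48% in extract and 1.42% in LPS cells. Its log2 fold change was 0.34 ± 0.059 in extract versus control (SE; limma adjusted p = 0.000987). Against LPS cells it was 0.21 ± 0.059 (limma adjusted p = 0.0137), and 0.14 ± 0.059 was the LPS-control difference (limma adjusted p = 0.094). That difference rested on single control libraries: it was 0.21 without control replicate 2, which passed the test (limma adjusted p = 0.00337, range over the alternatives 0.00337 to 0.288), and 0.07 without control replicate 3. It also passed under median-of-ratios scaling (0.23) and quantile normalization (0.17).

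Mt-cyb, the single mitochondrially encoded subunit of complex III, stood at 6749, 6730 and 6692 TPM in extract libraries, 5702, 5168 and 5546 TPM in LPS libraries and 5378, 5186 and 5282 TPM in control libraries. The extract libraries were again apart, and LPS replicate 2 lay below all 3 control libraries. The log2 fold change was 0.35 ± 0.036 in extract versus control (SE; limma adjusted p = 4.07e-05), and 0.02 under quantile normalization (limma adjusted p = 0.7, range over the alternatives 8.81e-06 to 0.7). Against LPS cells it was 0.30 ± 0.036 (limma adjusted p = 7.79e-05), and the LPS-control difference was 0.05 ± 0.036 (limma adjusted p = 0.307).

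In complex IV, Mt-co1 stood at 14466, 14665 and 14774 TPM in extract libraries, 14143, 13164 and 14206 TPM in LPS libraries and 12572.5, 12445 and 12673 TPM in control libraries. The 3 groups did not overlap, and the gap between extract and LPS libraries was narrow. Mt-co2 stood at 12793, 12932 and 12998 TPM in extract libraries, 11635, 11402 and 11903 TPM in LPS libraries and 10577, 11004 and 10280.5 TPM in control libraries. Mt-co3 stood at 12004, 11977 and 12012 TPM in extract libraries, 11168, 10651 and 11267 TPM in LPS libraries and 9956, 10148 and 9865 TPM in control libraries. For both genes the groups were likewise stepped, with extract above LPS and LPS above control in every library.

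Mt-atp6 stood at 8668, 8798 and 8377 TPM in extract libraries, 6943, 6406 and 6866 TPM in LPS libraries and 6986, 6728 and 7081 TPM in control libraries. It was the one gene of the 10 whose mean was lower in LPS than in control cells, 6738 ± 290.3 TPM in LPS and 6932 ± 182.8 TPM in control cells (SD, n = 3 each), with overlapping values. Its log2 fold change was 0.31 ± 0.038 in extract versus control (SE; limma adjusted p = 9.95e-05) and -0.04 ± 0.038 in LPS versus control (limma adjusted p = 0.418). With median-of-ratios scaling the LPS-control value was 0.05, also short of the threshold.

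**Figure D2:**
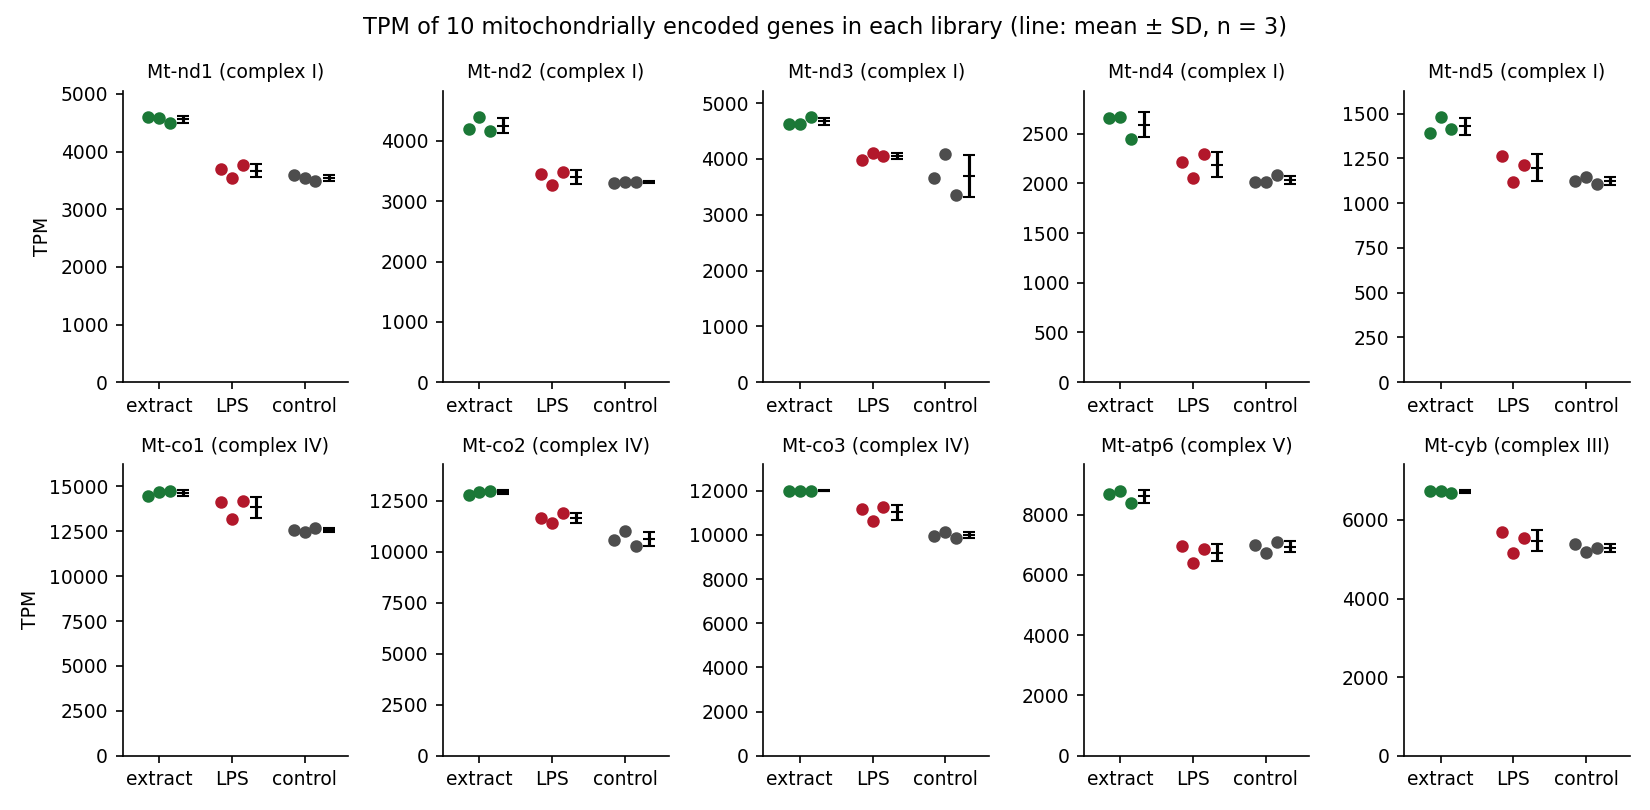
Each panel gives the TPM of 1 gene (vertical axis from 0) in the 3 extract, 3 LPS and 3 control libraries as points, with the mean ± SD beside them. In TPM as deposited the extract points lie above all others in every panel, the LPS points lie wholly above the control points only for Mt-co1, Mt-co2 and Mt-co3, and the wide control spread of Mt-nd3 (3347 to 4082 TPM) is visible.

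LPS versus control addressed the inflammatory model itself. The 3 cytochrome c oxidase genes rose with TPM as deposited, though not under quantile normalization, where their sign turned. The other 7 did not pass the test, so that 3 of 10 were called higher against 9.79% of all genes tested. The log2 fold change was 0.14 ± 0.032 for Mt-co1 (SE; limma adjusted p = 0.00774), 0.13 ± 0.031 for Mt-co2 (limma adjusted p = 0.00731) and 0.14 ± 0.028 for Mt-co3 (limma adjusted p = 0.00302). None of the 10 was called lower, against 30.9% of all genes tested. The median log2 fold change was 0.10 over the 10 genes and -0.08 over all genes tested. The same 3 genes were those whose LPS and control TPM did not overlap, while 12.5% of all genes tested were separated in that direction.

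The number called in LPS versus control depended on the processing more than in the comparisons with the extract group. It was 9 of 10, all but Mt-atp6, when libraries were rescaled by the median of ratios, a scaling that centres each library on its typical gene and called 17.2% of all genes higher. It was 0 without the filter on low values, where 6.13% of all genes were called higher. Under quantile normalization 1 gene, Mt-nd3, was higher (15.9% of all genes) and 3 were lower (19.7% of all genes), the lower ones being Mt-cyb at -0.17 and Mt-co1 and Mt-co2 at log2 fold changes of -0.29 and -0.19. Mt-co1 held ranks 4, 5 and 4 among all genes in the LPS libraries and rank 3 in each control library although its TPM was higher with LPS, and quantile normalization sets values by rank alone. LPS replicate 2 had the lowest TPM of the LPS group for 9 of the 10 genes and the highest for Mt-nd3. Without it 6 genes were called higher, Mt-nd4, Mt-nd5 and Mt-cyb in addition, against 8.57% of all genes. Its median-of-ratios factor was also the lowest of the 9, 0.949 against 0.971 to 1.035 in the others. After division by these factors the summed share was 6.52% ± 0.103 in LPS and 5.72% ± 0.062 in control cells (SD, n = 3 each), a ratio of 1.141. In extract cells it was 7.20% ± 0.033, which was 1.104 times the LPS share and 1.26 times the control share. LPS over control was then the larger step, whereas with TPM as deposited extract over LPS was the larger (1.145 against 1.07).

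The comparison of extract with LPS cells asked whether the model's levels were also those of cells given the extract. The TPM of the extract libraries was above that of the LPS libraries without overlap for all 10 genes, against 37.3% of all genes tested. Of the 10, 9 were called higher (limma adjusted p below 0.05), against 34.4% of all genes tested, and 0 were called lower, against 25%. Mt-co1 missed the threshold, with a log2 fold change of 0.08 ± 0.032 (SE, limma adjusted p = 0.0539, range over the alternatives 0.0196 to 0.473). It passed in 6 of 20 alternatives, among them without LPS replicate 1 (limma adjusted p = 0.0449) or LPS replicate 3 (0.0389). The others were a filter at a mean of 5 TPM (0.0345), scaling without the 10 genes (0.0314), library weights (0.0489) and quantile normalization (0.0196). Mt-atp6 showed the largest difference, 0.35 ± 0.038 (limma adjusted p = 3.09e-05). Mt-nd1, Mt-nd2 and Mt-cyb followed at 0.31, 0.32 and 0.30, and Mt-co2 and Mt-co3 were lower in the order at 0.15 and 0.12, with limma adjusted p of 0.00236 and 0.00415. Neither of these 2 passed under quantile normalization (0.04 and 0.09, limma adjusted p = 0.309 and 0.288) or without the low-value filter (limma adjusted p = 0.139 and 0.2). The median log2 fold change was 0.25 over the 10 genes and 0.04 over all genes tested. Median-of-ratios scaling left 8 called, without Mt-nd3 at an adjusted p of 0.0581 (limma; range over its alternatives 0.00105 to 0.0581), against 30% of all genes called higher. Omission of the low-value filter left 6, against 22% of all genes, and quantile normalization called 8, Mt-co1 among them, against 30%. The comparisons share libraries: LPS cells serve in both LPS versus control and extract versus LPS, so a low or high LPS value moves the 2 fold changes in opposite ways.

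**Figure D3:**
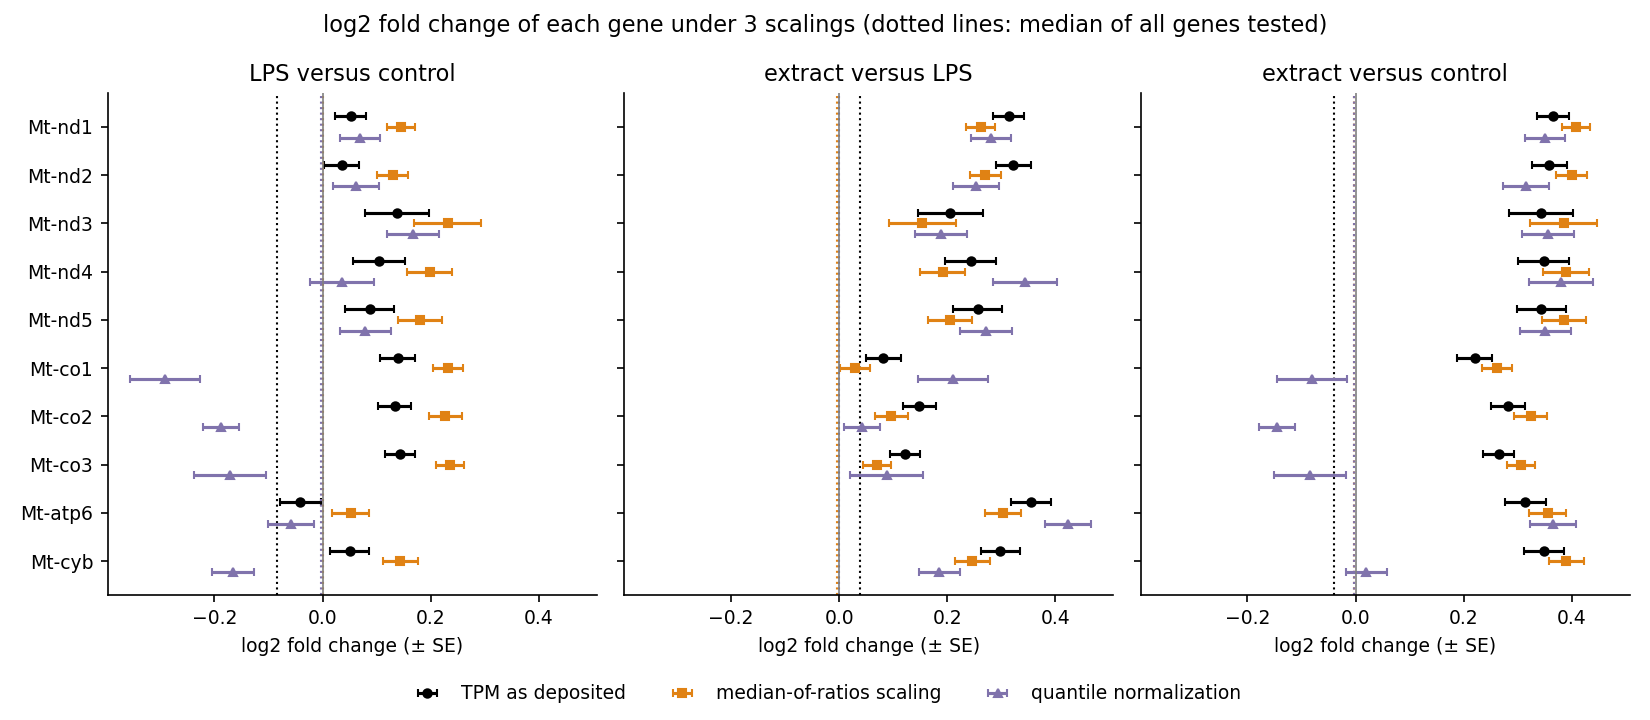
Points give the log2 fold change (horizontal axis, ± SE) of each gene in the 3 comparisons with TPM as deposited, after median-of-ratios scaling and after quantile normalization, and dotted lines give the median of all genes tested. With TPM as deposited all 10 genes lie between 0.22 and 0.37 in extract versus control, while Mt-co1, Mt-co2 and Mt-co3 fall to the negative side there and in LPS versus control under quantile normalization, as does Mt-cyb in LPS versus control.

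The make-up of the summed TPM was examined next, as a share that does not depend on library scaling. Shares sum to 100% in each library, so a lower share of some genes requires a higher share of others. Complex IV genes made up 54.41%, 54.32% and 55.16% of the 10 genes' TPM in extract libraries, 57.53%, 57.85% and 57.86% in LPS libraries and 55.96%, 56.35% and 56.09% in control libraries. The groups did not overlap, with LPS highest and extract lowest. Mt-atp6 made up 11.90% ± 0.25 in extract, 10.65% ± 0.146 in LPS and 11.73% ± 0.414 in control cells (SD, n = 3 each), so that its share was lower in every LPS library than in any other library. The 5 complex I genes made up 24.18% ± 0.217 in extract, 22.95% ± 0.181 in LPS and 23.19% ± 0.443 in control cells. Mt-cyb made up 9.29% ± 0.059 in extract, 8.65% ± 0.204 in LPS and 8.94% ± 0.211 in control cells. For these complexes the extract libraries were above all others, and the LPS and control libraries overlapped.

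**Figure D4:**
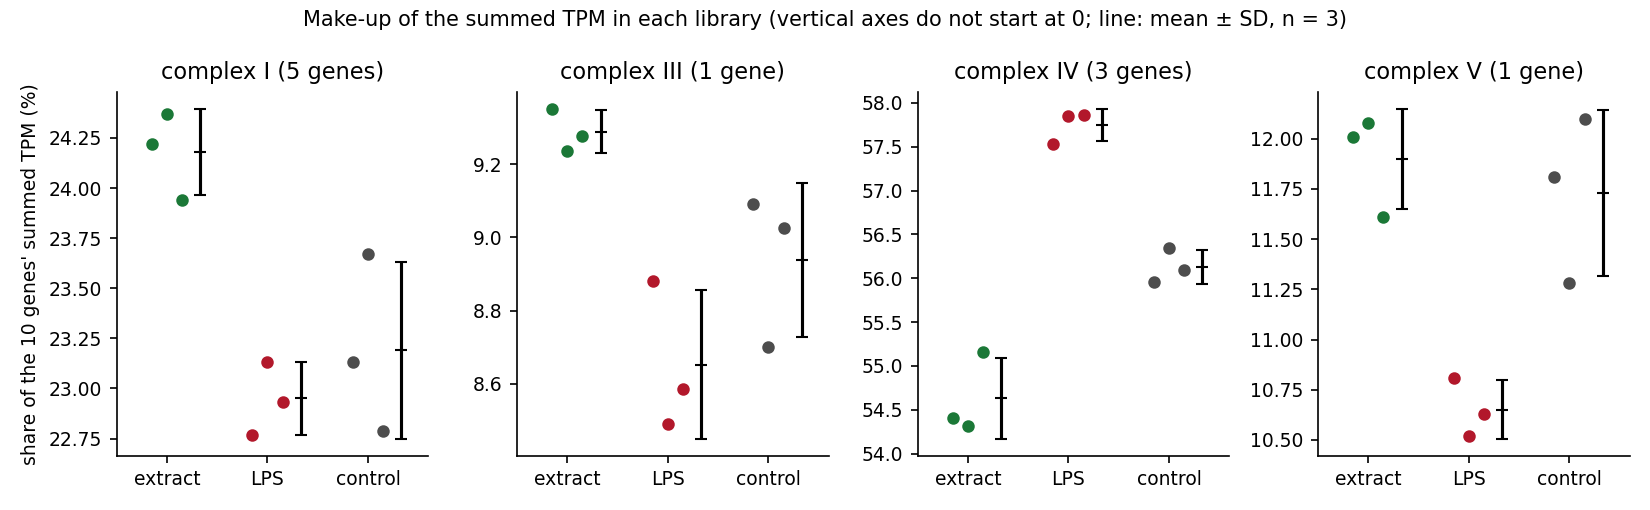
Each panel gives the percent of the 10 genes' summed TPM held by the genes of 1 complex in each library, as points with the mean ± SD; the vertical axes do not start at 0. Complex IV runs from 54.32% to 55.16% in extract, 57.53% to 57.86% in LPS and 55.96% to 56.35% in control libraries, and the complex V gene Mt-atp6 is lowest in the LPS libraries.

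Each gene's percent of the summed TPM was compared in 3 comparisons, 30 relations in all, with a two-sided exact permutation test over 6 libraries, whose smallest possible p is 0.1. In extract versus LPS 7 of 10 shares did not overlap, with Mt-nd1, Mt-nd2, Mt-cyb and Mt-atp6 higher and Mt-co1, Mt-co2 and Mt-co3 lower. These opposed directions are tied by the fixed sum and are not separate observations. The TPM of Mt-co1, Mt-co2 and Mt-co3 was itself higher in extract than in LPS libraries. Over all genes tested, 67.5% had a ratio to the summed TPM of the 10 genes that did not overlap in that comparison. The 10 genes are part of that sum, and the sum itself differed between the groups. The count and this percentage are therefore not like for like. In LPS versus control 4 shares did not overlap (60.9% of all genes), with Mt-co3 higher and Mt-nd1, Mt-nd2 and Mt-atp6 lower, and 7 without control replicate 2. Mt-co1 and Mt-co2 overlapped there, although the sum of the 3 complex IV genes did not. In extract versus control 6 did not overlap (76.5% of all genes), with Mt-nd1, Mt-nd2, Mt-nd5 and Mt-cyb higher and Mt-co1 and Mt-co3 lower. The same limit holds for the percentages over all genes in these comparisons. Mt-nd3 and Mt-nd4 overlapped in all 3 comparisons. Mt-co1, for example, held 20.2% of the summed TPM in extract, 21.9% in LPS and 21.3% in control cells.

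A model of all 12192 genes on the log2 ratio to the geometric mean of the 10, chosen after the values were seen, called 6 of the 10 in extract versus LPS, where 64.8% of all genes were called. Relative to that mean, Mt-co1 differed by -0.15 ± 0.031 (SE; limma adjusted p = 0.00176), Mt-co3 by -0.11 ± 0.028 (limma adjusted p = 0.00575) and Mt-atp6 by 0.12 ± 0.035 (limma adjusted p = 0.0129). Mt-co2 was also lower, and Mt-nd1 and Mt-nd2 were higher. In LPS versus control the only call among the 10 was Mt-atp6, at -0.13 ± 0.035 (limma adjusted p = 0.0137; 53.3% of all genes called). In extract versus control the only call was Mt-co1, at -0.10 ± 0.031 (limma adjusted p = 0.0155; 77.2% of all genes called). The 10 genes form the reference of this model, so their own changes average out by construction. Other genes are set against a reference that itself rose with TPM as deposited. The counts of the 10 and the shares over all genes are therefore not like for like. The changes in this model are differences in proportion between genes. They were smaller than the median rise of the 10 genes in extract versus LPS (0.25) and extract versus control (0.34). In LPS versus control that of Mt-atp6 was larger in size than the median rise of 0.10. For Mt-co1 in extract versus LPS it was larger in size than the gene's own rise of 0.08.

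Replicates deviated together for most of the genes. The deviations of log2 TPM from the group means had a median pairwise correlation of 0.669 over the 45 pairs of genes (Pearson's r over 9 libraries, a description, since all genes of a library share its scaling). Mt-nd3 stood furthest outside this pattern, with a median of -0.111 over its 9 pairs, 0.806 with Mt-co2 and -0.603 with Mt-atp6. Mt-co2 departed in part, with a median of 0.396 over its 9 pairs and -0.116 with Mt-atp6. LPS replicate 2 was the lowest of its group for every gene but Mt-nd3. Control replicate 2 was the highest and control replicate 3 the lowest control library for both Mt-nd3 and Mt-co2. How far the correlations rest on such single libraries was not tested. For each of the 10 genes, 1 transcript had a TPM equal to that of the gene in each of the 9 libraries. The transcript was found by this equality and not by an annotation. On that match, no difference between transcripts of a gene enters these values.

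Among 8342 other genes averaging 10 TPM or more, the pattern most like the summed 10 genes across the 9 libraries was that of ENSRNOG00000003720 (Pearson's r = 0.994 on the log2 scale). It stood at 463.0 ± 7.02 TPM in extract, 361.5 ± 18.5 TPM in LPS and 324.5 ± 6.22 TPM in control cells (SD, n = 3 each). The next was ENSRNOG00000004160 (r = 0.99), with 23.4 ± 0.848 TPM in extract, 13.4 ± 0.79 TPM in LPS and 10.4 ± 0.53 TPM in control cells. In both genes the extract libraries were above the LPS libraries and these above the control libraries, and neither identifier is paired with a name here.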

How the data were processed

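The authors deposited gene and transcript TPM, rounded to 2 decimals, for 9 libraries; every library sums to 1000000, so depth is not recorded. Per the submitters' processing notes, HISAT2 2.1.0, RSEM 1.3.3 and fastp were used, with no roles stated. Build, annotation and strandedness: not given in the sources used here. Columns were assigned by the code opening each title. Genes averaging 1 TPM or more were fitted as log2(TPM + 1) with limma 3.58.1 in R 4.3.3 (a mean per group over 9 libraries, mean-variance trend, two-sided, Benjamini-Hochberg over 12192 genes, called below 0.05). A fold change on this scale understates changes of low genes. The procedure was tested on simulated data with few changed genes, independent errors and no shared library shifts, a setting that cannot test the scaling. The 10 genes, their names and the lists were chosen with earlier results of these data known. The largest and smallest changes and genes departing from most members were described in full. The reference table (47357 genes, GRCr8) holds no Ensembl identifiers, so 0 matched. Nuclear respiratory chain genes, the remaining mitochondrial genes, cell type markers and sequences were therefore not analysed here. Alternatives were other pseudocounts, filters, scalings, variance models, a replicate block and leaving out each library.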

Additional observations from a re-analysis of the deposited data

How the results depend on the processing

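Among the alternatives run, the number of the 10 genes called higher moved by more than 1.5 times mainly in LPS versus control, where 3 became 9 with median-of-ratios scaling, 1 with quantile normalization and 0 without a filter on low values; leaving out 1 library gave 3 to 6. Quantile normalization called 3 of the 10 lower in that comparison, and 6 higher and 1 lower in extract versus control. Its log2 fold changes were reversed in LPS versus control for Mt-co1 (-0.29), Mt-co2 (-0.19), Mt-co3 (-0.17) and Mt-cyb (-0.17), and in extract versus control for Mt-co1 (-0.081), Mt-co2 (-0.15) and Mt-co3 (-0.084), because values are set by rank. Median-of-ratios scaling turned Mt-atp6 in LPS versus control to 0.052. Over all genes in LPS versus control, the 1193 called higher and 3769 called lower became 2102 and 2278 with median-of-ratios scaling and 1940 and 2402 with quantile normalization, which centre the libraries. In extract versus control 2716 higher and 3582 lower genes became 3202 and 3084, and 3133 and 3141. Genes whose share of the summed TPM did not overlap numbered 4 in LPS versus control, 4 to 7 with 1 library left out (7 without control replicate 2); the added limma model called 1 there and 1 in extract versus control, against 6. The summed share difference of 1.33 points in extract versus control was 1.12 without Mt-co1. Without the low-value filter the standard error of Mt-co1 was 0.075 against 0.032; the cause was not tested.

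With the replicate number as a block, 3, 9 and 10 of the 10 genes were called higher in LPS versus control, extract versus LPS and extract versus control, as without it. The deviations from group means correlated by -0.0554 to 0.0951 between libraries of the same number and by -0.11 to 0.0894 between the others. The numbers were therefore not taken to pair the libraries. Between extract and LPS, however, the same-number values (0.0226, 0.078 and 0.0951) were all above the others, which reached 0.00506. Over all 12192 genes the block gave 1105 higher and 3553 lower in LPS versus control. Without read depth, how much counting error adds to these values is unknown.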
